A study of Homo sapiens with 18 samples.

Results

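Of 13417 genes tested in human keratinocytes, 144 had higher transcript levels 24 h after transduction with Ad-TEADi, an adenovirus that carries an inhibitor of the TEAD transcription factors, than with the control virus Ad-GFP. The members were chosen by their 24 h values: a gene was taken when its mean log2(value + 1) difference amounted to at least 1.5-fold, Ad-TEADi over Ad-GFP, with all 3 Ad-TEADi libraries above all 3 Ad-GFP libraries. It also had to lie on chromosomes 1 to 22 or X and to reach a value of at least 1 in 3 libraries. In all, 156 genes met these limits, or 1.16% of those tested, and 12 of them were set aside by name (MMP1, MMP9, MMP10, S100A8, S100A9, FGFR3, AQP3, AKR1C2, IL1RN, IL33, GRHL3 and IVL). The 24 h values of the members are therefore given as a description with no test. The tests compare 12 h and 48 h libraries. These had no part in the 24 h difference, but they counted toward the limit on low values, and the 24 h libraries enter the estimate of the spread in the fit.

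The cells were N/TERT2G, an immortalized line of human keratinocytes, so all groups share 1 genetic background. The cargo of Ad-TEADi is a fusion of GFP with a nuclear localization signal and the parts of VGLL4, YAP1 and TAZ that bind TEAD, while Ad-GFP carries GFP alone. Both are expressed from a CMV promoter in an adenovirus that lacks E1 and E3, and both were given at a multiplicity of infection of 25 on the day after plating. Polyadenylated RNA was sequenced from Ad-TEADi and Ad-GFP cells at 12, 24 and 48 h, 3 libraries a group and 18 in all. Every group was thus infected and grown in supplemented EPILIFE medium, and no uninfected cells are among the samples. The labels name triplicates without saying whether these were separate cultures, so p-values measure the spread between these libraries, which may be technical. Levels are the deposited TMM normalized CPM, called values here, and changes are log2 differences of value + 1 with their SE from limma. On that scale the change of a gene with low values is understated. The words rose and fell are kept for changes of at least 1.5-fold at an adjusted p under 0.05.

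TEAD factors bind DNA and depend on the co-activators YAP1 and TAZ, which the Hippo kinases keep out of the nucleus. In the epidermis, YAP1 and TAZ are active in the basal layer, where keratinocytes divide. Cells that leave this layer stop dividing, change their keratins and junctions, and build a cornified envelope and a lipid barrier. Genes that rise when TEAD is blocked are therefore of interest as the other side of the better known set of genes that YAP1 and TAZ switch on.

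Promoters of 5 members are shown, chosen after the motif matches in them had been seen. The promoters of CA12, FAM213A, C10orf10, GJB2, SLITRK6 and COL5A3, the first 6 by 24 h difference with a usable promoter and an Ad-TEADi mean of at least 5, were read first. CA12, FAM213A and COL5A3 held matches to the KLF4 motif alone and are left out, and GJB2, with the same motif alone, stands for them. TRPV3, the only member to pass both limits at 12 h, and SPRR1B, with the largest 48 h change among members with a mean value of at least 5, were then added. Each sequence is the 250 bases before the start site from RefSeq (GRCh38.p14), 5′ to 3′ on the strand of the gene, and capitals mark matches to the motifs searched, on either strand.
C10orf10 (chr10:44978810-44979059, minus strand): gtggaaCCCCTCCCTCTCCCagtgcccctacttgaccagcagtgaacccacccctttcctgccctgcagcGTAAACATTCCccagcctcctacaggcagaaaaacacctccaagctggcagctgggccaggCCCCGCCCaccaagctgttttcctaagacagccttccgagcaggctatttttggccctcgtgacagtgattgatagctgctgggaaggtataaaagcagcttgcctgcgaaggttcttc
GJB2 (chr13:20192939-20193188, minus strand): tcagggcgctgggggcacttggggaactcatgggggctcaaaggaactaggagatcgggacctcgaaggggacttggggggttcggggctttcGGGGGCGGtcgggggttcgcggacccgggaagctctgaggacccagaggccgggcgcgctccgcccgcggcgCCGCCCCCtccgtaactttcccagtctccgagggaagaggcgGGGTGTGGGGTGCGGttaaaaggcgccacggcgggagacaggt
SLITRK6 (chr13:85799420-85799669, minus strand): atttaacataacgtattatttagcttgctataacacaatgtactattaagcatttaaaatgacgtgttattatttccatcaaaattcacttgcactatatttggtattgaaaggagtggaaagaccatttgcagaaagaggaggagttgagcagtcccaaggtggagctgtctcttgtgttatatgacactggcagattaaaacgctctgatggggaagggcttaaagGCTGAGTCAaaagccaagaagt
SPRR1B (chr1:153030953-153031202, plus strand): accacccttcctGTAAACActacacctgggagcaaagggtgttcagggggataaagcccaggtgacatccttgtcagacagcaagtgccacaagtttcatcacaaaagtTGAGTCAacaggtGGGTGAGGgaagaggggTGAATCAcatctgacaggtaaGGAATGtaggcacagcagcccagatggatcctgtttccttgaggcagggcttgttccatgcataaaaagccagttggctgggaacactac
TRPV3 (chr17:3557813-3558062, minus strand): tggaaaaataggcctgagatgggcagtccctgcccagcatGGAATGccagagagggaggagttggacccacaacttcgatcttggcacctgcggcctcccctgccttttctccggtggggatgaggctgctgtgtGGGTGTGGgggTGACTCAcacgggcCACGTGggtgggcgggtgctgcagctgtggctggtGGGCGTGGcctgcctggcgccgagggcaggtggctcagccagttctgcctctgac
In C10orf10 the TEAD motif CATTCC lay 175 bases before the start site and overlapped a FOXO motif, GTAAACA, that began at 180 bases. In SPRR1B the AP-1 motif TGANTCA was found at 141 and 111 bases before the start, a TEAD motif at 90 bases and a FOXO motif at 238 bases. SLITRK6 held an AP-1 motif 20 bases before the start, which overlapped a match to the antioxidant response element TGACNNNGC at 22 bases. TRPV3 held an AP-1 motif at 104 bases, an E-box, CACGTG, at 90 bases, and a TEAD motif at 210 bases. The capitals in GJB2 are all matches to CCNCNCCC, a GC-rich motif of KLF4 and related factors.

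Such matches are common. Over the 300 bases that run from 250 before to 50 after the start, RefSeq gave promoters for 103 of the 144 members and 10188 of the tested genes. The TEAD motif was present in 9.71% of member promoters, against 10.8% of the promoters of tested genes and 14% of 27305 promoters in all. For AP-1 the shares were 11.7% of member promoters, or 12 of 103, against 4.72% of tested and 7.76% of all promoters. The 12 were SLITRK6, SLC2A12, LGALS7B, PTCHD2, VAV3, SPRR1B, IL11, SLC43A2, SLC9A9, NREP, TRPV3 and CLCA2. The KLF4 motif was found in 77.7% of member promoters, against 73.7% of tested and 55.1% of all. FOXO (1.94% of members, 2.23% of tested and 3.41% of all), the E-box (9.71%, 10.1% and 7.43%), the antioxidant element (10.7%, 14.9% and 13.6%) and GTGGGAA of the Notch effector RBPJ (4.85%, 5.85% and 6.28%) were no more frequent in members than in tested genes. AACCNGGTT of the grainyhead-like factors was in no member promoter and in 0.245% of tested and of all promoters. No test was made of these shares, and a match of letters is not a binding site.

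The libraries held 14.16 to 26.72 M reads in the listed genes, as worked back from the CPM. CTGF, a matricellular gene switched on by YAP1 and TAZ, served as a check of the inhibitor, with mean values of 17.3 ± 5.74 with Ad-TEADi, against 61.5 ± 4.77 with Ad-GFP, at 24 h, and 7.06 ± 0.376 with Ad-TEADi, against 62.1 ± 5.37 with Ad-GFP, at 48 h (SD, n = 3). In RNA from whole cultures, fewer cells of a kind and less RNA per cell cannot be told apart. All 12 keratinocyte markers were measured in every group, and their summed value ranged from 62629.5 to 65844 in Ad-TEADi and from 49364 to 49934 in Ad-GFP at 48 h. With Ad-TEADi the 48 h mean was higher for 11 of the 12 and lower for ITGB4 (2143, against 2487 with Ad-GFP). Of the 13 fibroblast markers 10 were in the table and summed to between 989 and 1007 in Ad-TEADi and between 916 and 964 in Ad-GFP at 48 h, most of it VIM, which cultured keratinocytes also express. DCN, a defining fibroblast gene, averaged 8.34 with Ad-TEADi and 0.153 with Ad-GFP at 48 h. The 48 h mean was higher with Ad-TEADi for 8 of the 10, among them COL1A1 (39.5 with Ad-TEADi, 20.4 with Ad-GFP), FBN1 (64.4 and 46.3), POSTN (0.758 and 0.325) and COL1A2 (1.51 and 1.29), in the same order of viruses. It was lower for THY1 (1.32 with Ad-TEADi, 2.49 with Ad-GFP) and TWIST1 (0.266 and 0.503). Melanocyte markers (2 of 8 in the table) summed to 0.89 to 1.49 in Ad-TEADi and 1.56 to 1.97 in Ad-GFP at 48 h. Immune and endothelial markers (3 of 13 in the table, chiefly CD68) summed to 48.6 to 57.5 in Ad-TEADi and 33.7 to 39.8 in Ad-GFP. Simple epithelium markers (6 of 7 in the table) summed to 659 to 693 in Ad-TEADi and 979 to 1058 in Ad-GFP. Of these 6, 4 had lower 48 h means with Ad-TEADi and 2 higher, MUC1 (6.68, against 2.54 with Ad-GFP) and KRT19 (0.443, against 0.392). The part of any such cells in the results was not tested. One 24 h library stood apart: Ad-TEADi replicate 1 held the lowest of the 3 Ad-TEADi values for 115 of the 144 members, and its median excess over the Ad-GFP mean was 0.59, against 0.79 and 0.78 in replicates 2 and 3.

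At 24 h the median difference of the 144 members was 0.71, with a range of 0.59 to 1.90, and 14 members differed by 1 or more. The upper end is that of NRBP2, described below, and the next was CA12 with 1.38. The members were not highly expressed genes as a group. Their mean values over all libraries had a median of 10.4, against 22 for all tested genes, and ran from 0.634 to 704. At the limit itself, VANGL2, SPOCD1 and ITGB6 were the last to be taken, with 24 h differences of 0.5857 for SPOCD1 and 0.5859 for ITGB6, and VANGL2 had 18.3, 21.2 and 21.5 with Ad-TEADi and 13.5, 12 and 14.1 with Ad-GFP. KLHL4, GAREM and RARG fell just short with 0.5847, 0.5843 and 0.5836. Of the members, 11 reached a value of 1 in fewer than 3 libraries outside Ad-TEADi at 24 and 48 h, so they passed the filter on low values through the group in which they were high. These were NOTCH3, KIAA1199, TINCR, EFCAB12, KCNN4, RP11-463D19.2, TPRXL, SPON2, GNAO1, LGR6 and ZNF750. Their changes are given below as a description with no p-value, and counts over the other 133 members are set beside those over 144. The counts by role group include them.

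NRBP2, which had the largest 24 h difference of all, is a case apart. Its values were 34.9, 39.1 and 41.7 with Ad-TEADi and 0.0501, 31.4 and 33.9 with Ad-GFP at 24 h, and 71.8, 0.0442 and 77.2 with Ad-TEADi and 44.5, 46.6 and 45.5 with Ad-GFP at 48 h. A value near 0.05 is that of no read at all, since 1 read had been added to every count, so the gene switched between none and over 30 within a single group. NRBP2 is 1 of 539 genes in the table that were set down as of uncertain copies. They were listed on a sequence outside the chromosomes, or varied by over 16-fold within a group that reached at least 100 reads. A difference between the deposited CPM and TPM was also looked for and marked none of them. That check took only genes with a value above 1 in every library, so it could not mark NRBP2. NRBP2 was set down for its spread. The groups overlapped at 48 h (log2 change -1.36 ± 2.12, adjusted p = 0.628). It is kept in every count of 144 below.

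**Figure D1:**
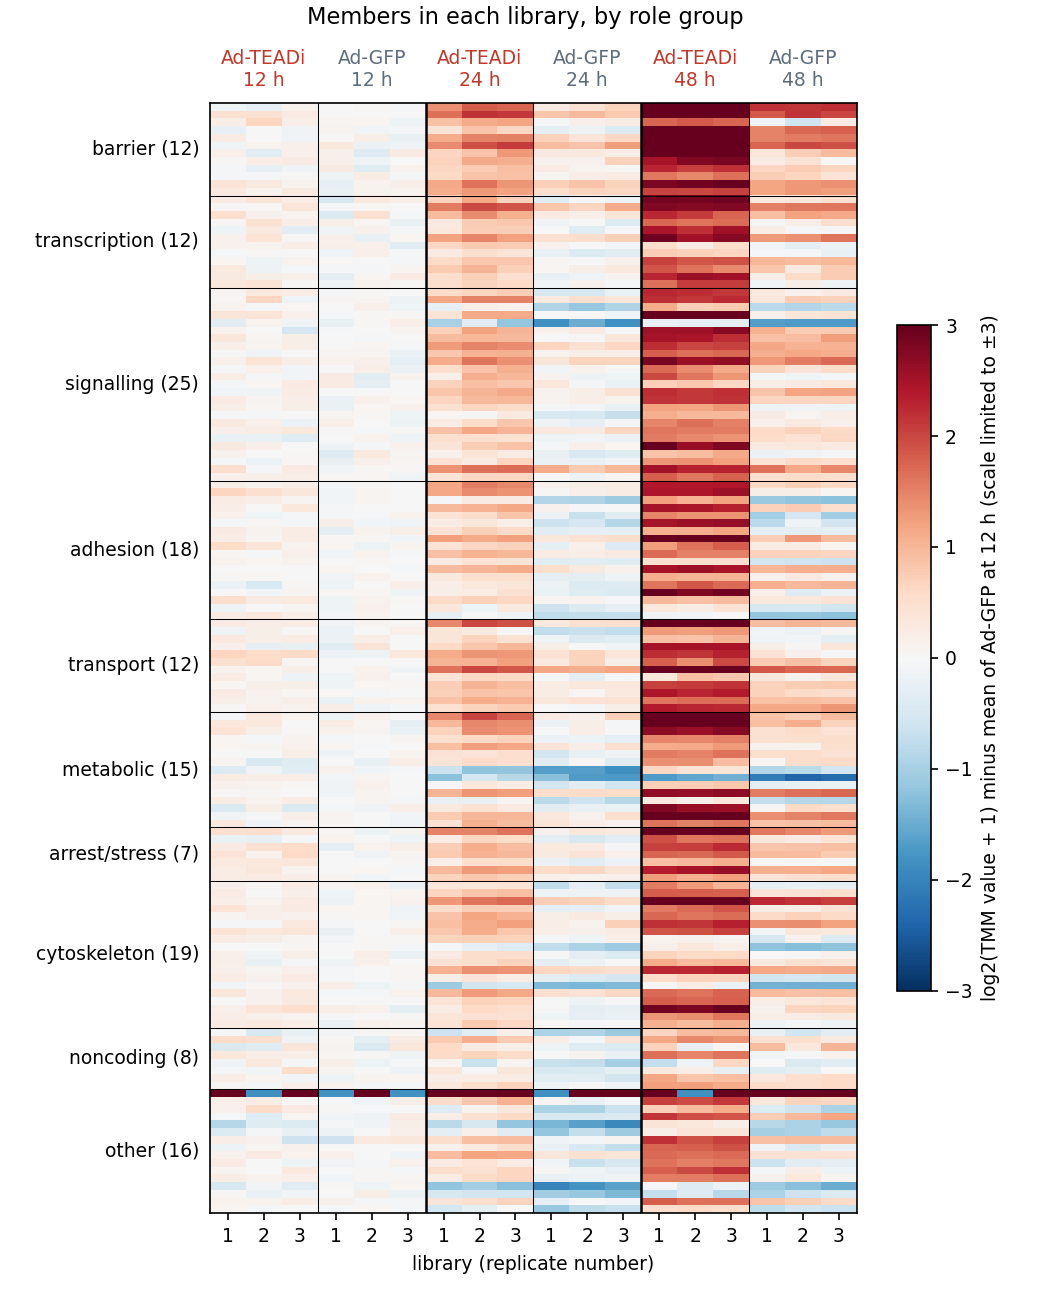
All 144 members (rows, by role group and then by 24 h difference) in the 18 libraries (columns), as log2(TMM value + 1) minus the mean of the 3 Ad-GFP libraries at 12 h, with colours limited to 3 either way. The median over members was 0.10 to 0.14 in Ad-TEADi at 12 h, 0.53 to 0.77 in Ad-TEADi at 24 h, and 1.65 to 1.74 in Ad-TEADi against 0.33 to 0.46 in Ad-GFP at 48 h.

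The 12 h comparison asked whether the members had already moved. Their median change was 0.13, against 0.00 for all tested genes, and 111 of 144 lay above 0, against 50.1% of all genes. Only TRPV3 rose, where 0.0149% of tested genes did, and no member fell, where 0.0298% did. TRPV3 is a warmth-sensitive, calcium-permeable channel of keratinocytes. Its values at 12 h were 5.51, 5.1 and 5.32 with Ad-TEADi and 2.71, 2.74 and 4.23 with Ad-GFP, without overlap (log2 change 0.60 ± 0.13, adjusted p = 0.0231). At 24 h, where the choice required the order, it had 8, 9.47 and 9.32 with Ad-TEADi and 4.66, 5.66 and 4.34 with Ad-GFP. At 48 h the groups again did not overlap, with 18.3, 17.4 and 19.8 with Ad-TEADi and 4.6, 3.59 and 3.02 with Ad-GFP (log2 change 2.05 ± 0.13, adjusted p = 9.7e-15). The 12 h call rests on few libraries: without Ad-TEADi replicate 1 or 2, or without Ad-GFP replicate 1 or 2, its adjusted p was 0.123, 0.0718, 0.0946 and 0.0857. In a fit of the 12 h groups alone it was 0.068.

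Together with TRPV3, 7 members passed the adjusted p at 12 h as higher, where 0.559% of tested genes did, and none passed as lower, where 0.544% did. SLITRK6, a neuronal membrane protein with leucine-rich repeats, had 33.6, 29.9 and 27.3 with Ad-TEADi and 19.9, 22.7 and 21.2 with Ad-GFP (log2 change 0.49 ± 0.07, adjusted p = 0.00191). C10orf10, also known as DEPP1 and a target of FOXO factors, had 7.68, 7.9 and 6.54 with Ad-TEADi and 5.43, 4.54 and 5.56 with Ad-GFP (log2 change 0.44 ± 0.10, adjusted p = 0.0231). These changes were under the fold limit. The rest were ITGB8 (log2 change 0.36 ± 0.07, adjusted p = 0.0219), TP53INP1 (log2 change 0.33 ± 0.08, adjusted p = 0.0332), ITGB6 (log2 change 0.24 ± 0.05, adjusted p = 0.0229) and BTG2 (log2 change 0.22 ± 0.06, adjusted p = 0.0434), thus 2 integrin subunits and 2 genes known as antiproliferative targets of p53. All 3 Ad-TEADi libraries lay above all 3 Ad-GFP libraries at 12 h for 42 members, against 10.9% of tested genes. The opposite order was seen for 3 members, THEMIS2, TYMP and MRGPRX3, against 10.99% of tested genes.

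By 48 h, 132 of the 144 members had risen (91.7%), where 6.27% of tested genes did, and so had 123 of the 133 that pass the filter without the Ad-TEADi libraries at 24 and 48 h. With the deposited TPM in place of CPM, 63 of 144 passed the limits, where 2.91% of tested genes passed in either direction. The TPM sum to 98913 to 99722 a library, less than the CPM do, and with a pseudocount of 0.1 on them the count was 114, where 8.79% of tested genes passed. None had fallen, where 6.3% of tested genes did, although RP11-463D19.2, one of the 11 without a p-value here, was counted as lower without Ad-TEADi replicate 1 or without Ad-GFP replicate 2 at 48 h. The median change was 1.25, with a middle range of 0.95 to 1.75, against -0.03 for all tested genes. Values did not overlap between the groups for 137 members, with Ad-TEADi higher, against 26.8% of tested genes. The change at 48 h was larger than the 24 h difference for 130 members and smaller for 14. It reached 1 for 99 members and 2 for 26. Ad-TEADi and Ad-GFP cells were compared within each time, so the 12 h, 24 h and 48 h changes come from separate libraries.

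**Figure D2:**
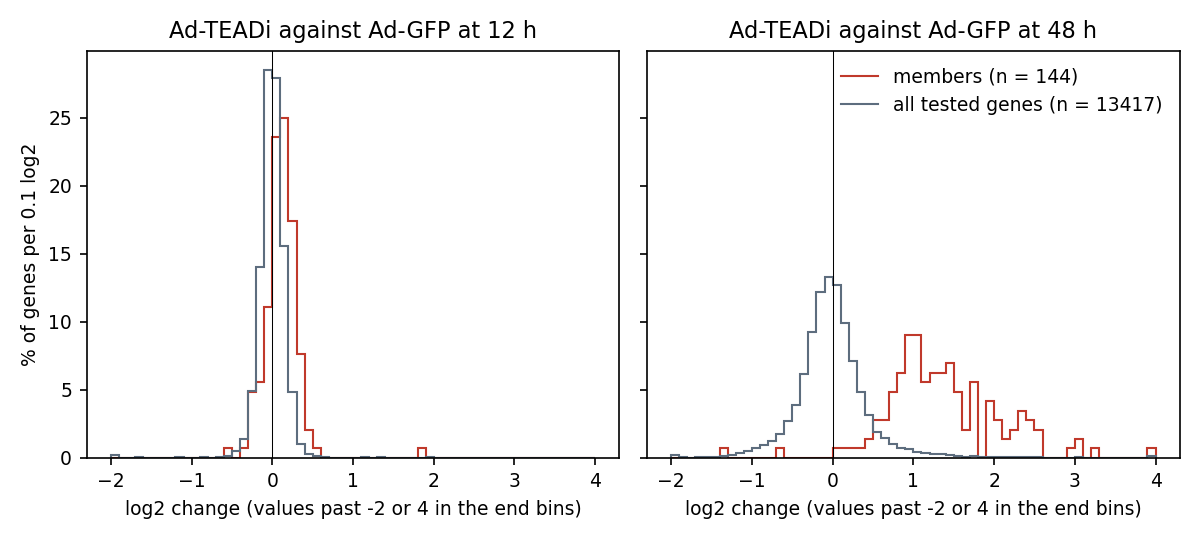
Distribution of the log2 change, Ad-TEADi against Ad-GFP, over the 144 members and over all 13417 tested genes at 12 h (left) and 48 h (right), as a percentage of genes in steps of 0.1. The members' median lay at 0.13 at 12 h and at 1.25 at 48 h, and that of all tested genes at 0.00 and -0.03.

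Genes of keratins, the cornified envelope and the lipid barrier formed the role group with the largest 48 h changes. All 12 had risen at 48 h, with a median of 2.08, although their median 24 h difference of 0.75 was like that of the members as a whole. SPRR1B encodes a small proline-rich protein that is cross-linked into the envelope. Its values were 9.73, 14.2 and 16.2 with Ad-TEADi and 6.62, 6.23 and 8.56 with Ad-GFP at 24 h, and 146, 129 and 144 with Ad-TEADi and 12.5, 15.1 and 14.4 with Ad-GFP at 48 h (log2 change 3.23 ± 0.17, adjusted p = 3.5e-11). At 12 h the groups had overlapped, with 2.67, 3.34 and 3.43 with Ad-TEADi and 4.02, 2.55 and 2.6 with Ad-GFP. KRT16, a keratin of stressed and dividing epidermis, followed the same order, with 43.5, 57.2 and 57.7 with Ad-TEADi and 32.4, 26.1 and 30.6 with Ad-GFP at 24 h and 306, 289 and 309 with Ad-TEADi and 56.7, 59.2 and 61.8 with Ad-GFP at 48 h (log2 change 2.33 ± 0.13, adjusted p = 1.6e-09). KRT15, by contrast, is known as a basal keratin. It had 55.9, 80.3 and 77.3 with Ad-TEADi and 31.2, 34.3 and 30.1 with Ad-GFP at 24 h, and 286, 304 and 322 with Ad-TEADi and 63.5, 80.1 and 71.4 with Ad-GFP at 48 h (log2 change 2.07 ± 0.12, adjusted p = 1.6e-09).

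ALOX15B, a lipoxygenase of arachidonic acid, had 5.56, 5.01 and 6.63 with Ad-TEADi and 6.19, 6.24 and 5.93 with Ad-GFP at 12 h, with overlap. At 24 h it had 17.3, 24.1 and 22.7 with Ad-TEADi and 7.47, 8.7 and 10.4 with Ad-GFP, and at 48 h 147, 138 and 136 with Ad-TEADi and 31, 30.4 and 32.2 with Ad-GFP (log2 change 2.14 ± 0.10, adjusted p = 7e-16). Lipids of the barrier are the business of other members. ABCA12, the lipid transporter of lamellar granules, had 64.6, 68.4 and 73.2 with Ad-TEADi and 20, 22 and 22.9 with Ad-GFP at 48 h (log2 change 1.62 ± 0.11, adjusted p = 6.5e-12). NIPAL4, which is mutated in ichthyosis, had 39.5, 35.8 and 41.4 with Ad-TEADi and 21.7, 20.1 and 16.8 with Ad-GFP (log2 change 0.96 ± 0.10, adjusted p = 3.9e-10). SPINK5 encodes LEKTI, the inhibitor of the kallikreins that shed the outer layer. Its values were 0.773, 0.981 and 1.04 with Ad-TEADi and 0.922, 0.549 and 0.726 with Ad-GFP at 12 h, and 8.55, 10.8 and 11.5 with Ad-TEADi and 1.06, 1.34 and 0.712 with Ad-GFP at 48 h (log2 change 2.47 ± 0.16, adjusted p = 2.3e-14 at 48 h). TINCR, a transcript known for its need in epidermal differentiation, had 11.7, 10.7 and 12.4 with Ad-TEADi and 0.859, 1.43 and 1.78 with Ad-GFP at 48 h (log2 change 2.44). The calmodulin-like CALML3 (48 h change 1.94), the galectin LGALS7B (2.08), the lamellar granule protein TMEM79 (1.5) and AHNAK2 (0.77) had risen as well. LGALS7B has a near-identical neighbour, LGALS7, and reads may have been split between them.

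Lists of epidermal genes were also read outside the members. The 12 genes set aside by name met the 24 h limits but do not count as members. Here and below, the counts of other genes on a list may therefore include some of them. Of 28 tested spinous and cornified layer genes that were not members, 19 had risen at 48 h and 1 had fallen, with a median of 1.15. Of 37 other genes of lipid metabolism and barrier lipids, 13 had risen and 3 had fallen (median 0.32). Among 30 other basal layer, integrin and laminin genes, 7 had risen and 1 had fallen (median 0.33).

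**Figure D3:**
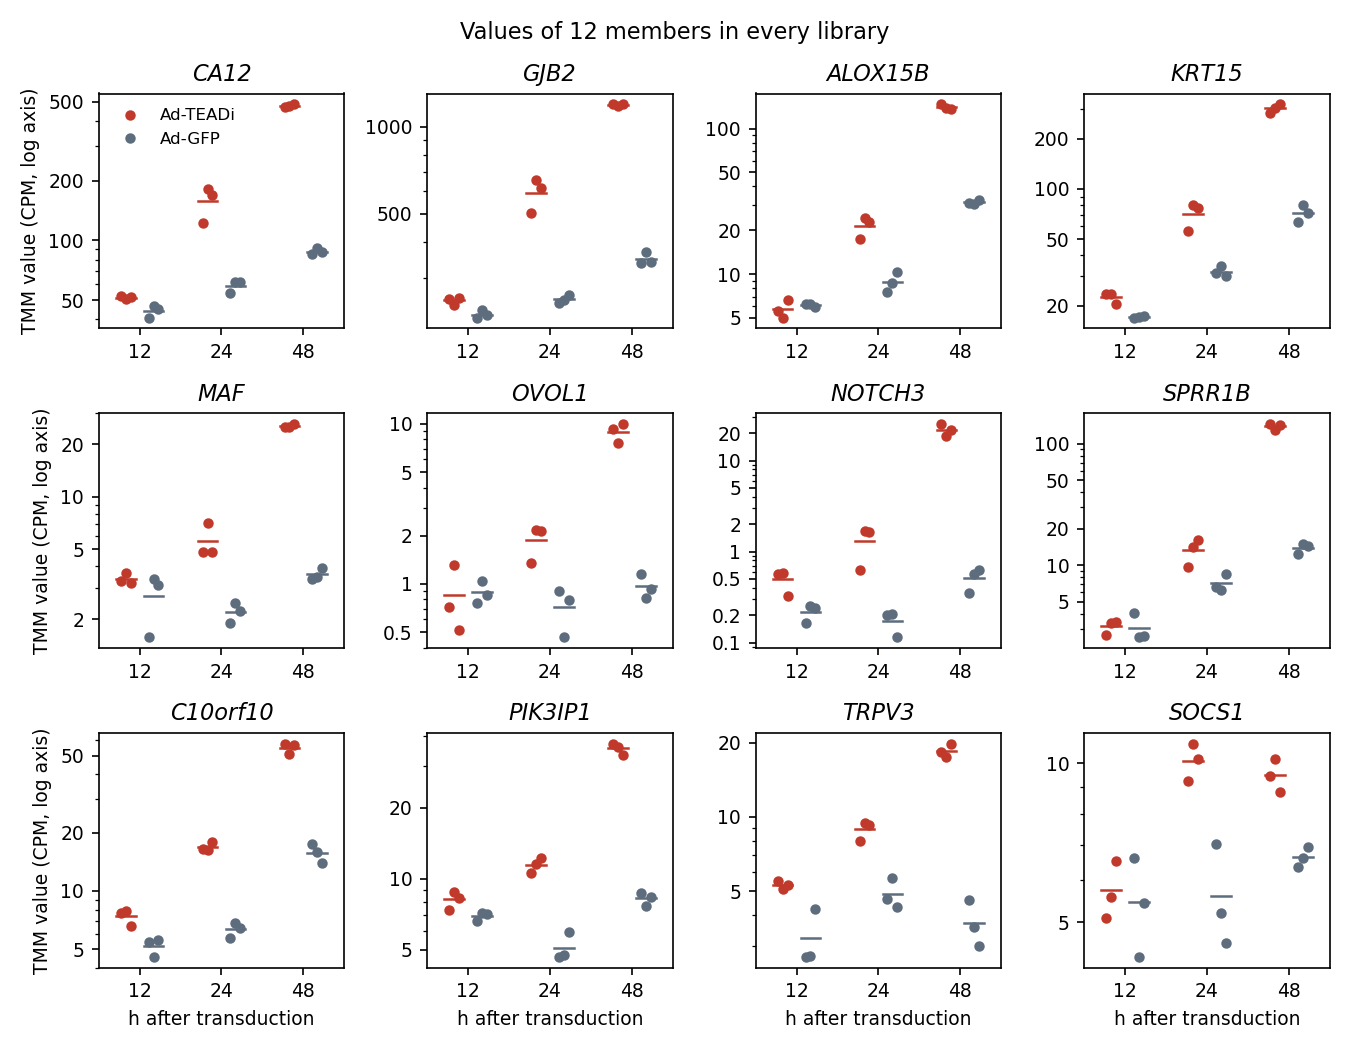
TMM normalized values (CPM, log axis) of 12 members in each library at 12, 24 and 48 h, with Ad-TEADi left of Ad-GFP, points for libraries and bars for the mean of 3. At 48 h the Ad-TEADi points lay above the Ad-GFP points for all 12, and SOCS1 alone was no farther apart at 48 h than at 24 h.

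Transcription regulators counted 12 members, of which 11 had risen at 48 h with a median of 1.25. MAF, a bZIP factor that takes part in epidermal differentiation, had 4.82, 7.07 and 4.81 with Ad-TEADi and 1.91, 2.47 and 2.23 with Ad-GFP at 24 h. Its values were 25.2, 25.2 and 26.1 with Ad-TEADi and 3.39, 3.5 and 3.91 with Ad-GFP at 48 h (log2 change 2.53 ± 0.15, adjusted p = 6.6e-15). OVOL1 is a zinc finger repressor by which keratinocytes stop dividing. It stayed near 1 in Ad-GFP at every time and reached 9.27, 7.6 and 10 with Ad-TEADi, against 1.16, 0.821 and 0.934 with Ad-GFP, at 48 h (log2 change 2.33 ± 0.16, adjusted p = 6.1e-14). ZNF750, a regulator of late differentiation that lies inside TBCD on the opposite strand, had 0.675, 0.834 and 0.745 with Ad-TEADi and 0.1, 0.257 and 0.114 with Ad-GFP at 24 h. At 48 h it had 2.63, 3.93 and 3.95 with Ad-TEADi and 0.101, 0.303 and 0.0445 with Ad-GFP (log2 change 1.96), and the Ad-GFP levels amount to few reads. FOS, a subunit of AP-1, rose with both viruses and more with Ad-TEADi, at 26.5, 25.4 and 26.4 with Ad-TEADi and 10.5, 11 and 11.1 with Ad-GFP at 48 h (log2 change 1.19 ± 0.12, adjusted p = 2.5e-10).

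TFEB, the regulator of lysosomal genes, had 16.9, 14.9 and 11.5 with Ad-TEADi and 5.97, 7.65 and 7.16 with Ad-GFP at 48 h (log2 change 0.95 ± 0.19, adjusted p = 0.00041). MXD4, which competes with MYC for its partner MAX, had 140.2, 123 and 127 with Ad-TEADi and 66.9, 63.3 and 66.8 with Ad-GFP (log2 change 0.97 ± 0.07, adjusted p = 5.3e-14). TP73 of the p53 family (1.02), TSHZ2 (1.97), ZNF608 (1.42), MN1 (0.80) and the stress-responsive NUPR1 (1.30) had risen too. MSC, a bHLH repressor, did not pass the fold limit, with 21, 16.9 and 21 with Ad-TEADi and 13.5, 11.8 and 12.9 with Ad-GFP (log2 change 0.58 ± 0.11, adjusted p = 4.5e-05). Of 30 tested differentiation transcription factors that were not members, 11 had risen at 48 h and 0 had fallen (median 0.43).

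Receptors, ligands and signalling proteins made the largest role group, with 25 members, of which 24 had risen at 48 h (median 1.21). NOTCH3, a receptor of the Notch family that is found in the layers above the basal one, had the largest 48 h change of all 144. Its values were 0.626, 1.67 and 1.66 with Ad-TEADi and 0.201, 0.206 and 0.114 with Ad-GFP at 24 h, and 25.3, 18.7 and 21.5 with Ad-TEADi and 0.354, 0.562 and 0.623 with Ad-GFP at 48 h (log2 change 3.91). The low values in Ad-GFP and at 12 h, 0.567, 0.589 and 0.329 with Ad-TEADi and 0.163, 0.25 and 0.242 with Ad-GFP, stand for few reads. It was the only member on the Notch list. Of the 31 other tested Notch pathway genes, 2 had risen and 4 had fallen at 48 h, with a median of -0.02.

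PIK3IP1, an inhibitor of phosphoinositide 3-kinase and a FOXO target, had 10.6, 11.5 and 12.3 with Ad-TEADi and 4.66, 4.74 and 5.93 with Ad-GFP at 24 h, and 37.3, 36.2 and 33.5 with Ad-TEADi and 8.7, 7.7 and 8.41 with Ad-GFP at 48 h (log2 change 1.99 ± 0.10, adjusted p = 1.9e-17). GNAO1, the alpha subunit of a heterotrimeric G protein, stayed under 0.5 in Ad-GFP at all times and had 8.5, 5.92 and 6.9 with Ad-TEADi at 48 h (log2 change 2.54). TNFSF10, the death ligand TRAIL, had 36.1, 49.5 and 42.1 with Ad-TEADi and 38.9, 46.6 and 52.6 with Ad-GFP at 12 h, and 39.3, 37.9 and 37.8 with Ad-TEADi and 13.9, 13.4 and 13.3 with Ad-GFP at 48 h (log2 change 1.44 ± 0.19, adjusted p = 3.1e-05 at 48 h). The higher 48 h values of TNFSF10 in Ad-TEADi thus stood beside a fall with Ad-GFP over time. Wnt signalling was represented by the ligand WNT10A (1.36), the DKK co-receptor KREMEN2 (1.19), the R-spondin receptor LGR6 (1.08) and the planar polarity protein VANGL2 (1.21).

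Cytokine signalling gave small numbers. IL36G, an epidermal interleukin, had 6.44, 4.64 and 3.73 with Ad-TEADi and 0.859, 0.735 and 0.845 with Ad-GFP at 48 h (log2 change 1.69 ± 0.20, adjusted p = 7.2e-08). IL11 had 6.13, 4.86 and 3.84 with Ad-TEADi and 2.53, 1.9 and 2.22 with Ad-GFP (log2 change 0.87 ± 0.15, adjusted p = 1.3e-05). SOCS1, a feedback inhibitor of JAK kinases, was the 1 member of this group that had not risen, with 9.48, 10.2 and 8.84 with Ad-TEADi and 6.37, 6.62 and 6.94 with Ad-GFP (log2 change 0.46 ± 0.13, adjusted p = 0.00331). It had differed more at 24 h, with 9.25, 10.9 and 10.2 with Ad-TEADi and 7.02, 5.2 and 4.56 with Ad-GFP. SOCS1 overlaps RMI2, which is listed at a similar level on the other strand. Of 42 other tested interleukin, chemokine and alarmin genes, 11 had risen and 11 had fallen at 48 h. No member was on the list of growth factor receptors and ligands, in which 8 of 48 had risen and 8 had fallen. This does not mean that no such gene was higher at 24 h. FGFR3 met the 24 h limits but was set aside by name. The growth factor PGF is a member that the list does not hold, and it had risen at 48 h (0.98).

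Junction, adhesion and matrix genes numbered 18, and 17 of them had risen at 48 h (median 1.43). GJB2 encodes connexin 26, a gap junction protein that is raised in differentiating and wounded epidermis. Its values were 255, 243 and 256 with Ad-TEADi and 219, 232 and 223 with Ad-GFP at 12 h, 504, 654 and 616 with Ad-TEADi and 246, 253 and 263 with Ad-GFP at 24 h, and 1198, 1185 and 1198 with Ad-TEADi and 339, 369 and 340.5 with Ad-GFP at 48 h (log2 change 1.77 ± 0.06, adjusted p = 3e-15). The Ad-TEADi values were higher without overlap at 12 h and 48 h, as the choice required at 24 h. At 12 h that order was seen in 10.9% of tested genes, and GJB2 did not pass the test (log2 change 0.16 ± 0.06, adjusted p = 0.19). Its neighbour GJB6, connexin 30, was lower in level, with 63.2, 65.9 and 62.5 with Ad-TEADi and 21.6, 23.2 and 23.4 with Ad-GFP at 48 h (log2 change 1.45 ± 0.08, adjusted p = 4.7e-16). SLITRK6 was close to flat in Ad-GFP, with 24, 24.2 and 22.2 at 48 h, and had 118, 119 and 131 with Ad-TEADi (log2 change 2.34 ± 0.07, adjusted p = 2.3e-21). COL5A3, a chain of type V collagen, fell with Ad-GFP over time and had 47.6, 42 and 47.1 with Ad-TEADi against 8.64, 8.13 and 7.83 with Ad-GFP at 48 h (log2 change 2.34 ± 0.08, adjusted p = 1.5e-20).

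Cell surface peptidases were found here as well. DPP4 (CD26), which removes N-terminal dipeptides, had 2.22, 2.45 and 2.1 with Ad-TEADi and 0.802, 0.927 and 0.513 with Ad-GFP at 24 h. At 48 h it had 14.6, 15.6 and 16.1 with Ad-TEADi and 0.607, 1.51 and 0.845 with Ad-GFP (log2 change 3.07 ± 0.14, adjusted p = 8.9e-18). ANPEP, aminopeptidase N, had 80, 76.3 and 76.3 with Ad-TEADi and 40.9, 45.4 and 40.6 with Ad-GFP (log2 change 0.86 ± 0.07, adjusted p = 1e-12). SPON2, a secreted matrix protein, was at 0.675, 0.736 and 1.05 with Ad-TEADi and 0.301, 0.154 and 0.114 with Ad-GFP at 24 h and at 11.3, 9.28 and 10.1 with Ad-TEADi and 0.657, 0.13 and 0.311 with Ad-GFP at 48 h (log2 change 3.06). CSPG4, a proteoglycan of basal keratinocytes and pericytes, had 47.5, 45.9 and 42.5 with Ad-TEADi and 13, 13.6 and 11.3 with Ad-GFP (log2 change 1.76 ± 0.09, adjusted p = 6.3e-17). The nectin PVRL1 (0.90) and the giant cadherin FAT2 (1.40) had risen as well, at 713, 726 and 767 with Ad-TEADi and 277, 275 and 279 with Ad-GFP for FAT2. DPP4 and ANPEP were also on the list of proteases and their inhibitors, of whose 48 other tested genes 18 had risen and 4 had fallen at 48 h (median 0.33).

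The integrin subunits behaved otherwise. ITGB6, which pairs with the alpha v subunit and activates TGF-beta, had 364, 387 and 357 with Ad-TEADi and 294, 333 and 309.7 with Ad-GFP at 12 h. At 48 h the values were lower, at 288, 296 and 312 with Ad-TEADi and 137, 138 and 133 with Ad-GFP (log2 change 1.13 ± 0.05, adjusted p = 5.3e-18), so that the gap was wider while values were lower than at 12 h with either virus. ITGB8 had 39.4, 36.8 and 38.3 with Ad-TEADi and 24.4, 24.6 and 26.5 with Ad-GFP (log2 change 0.58 ± 0.07, adjusted p = 6.5e-08), under the fold limit. PCDHGC5 shares exons with other protocadherin gamma genes, so its rise (2.25) may belong to any of them. Of 29 other tested desmosome and adhesion genes, 13 had risen and 1 had fallen at 48 h (median 0.53).

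Channels and transporters counted 12 members, of which 11 had risen at 48 h (median 1.32). CA12, a membrane carbonic anhydrase placed here because it works with acid and base transport, had the largest 24 h difference after NRBP2. It had 122, 181 and 169 with Ad-TEADi and 54.2, 61.4 and 61.8 with Ad-GFP at 24 h, and 468, 474 and 485 with Ad-TEADi and 85.1, 91.1 and 87.2 with Ad-GFP at 48 h (log2 change 2.42 ± 0.11, adjusted p = 2.5e-10). CLCA2, a regulator of chloride conductance in basal keratinocytes and a p53 target, had 687, 709 and 746 with Ad-TEADi and 269, 278 and 285 with Ad-GFP (log2 change 1.36 ± 0.06, adjusted p = 6.4e-15). The glucose transporter SLC2A3 (GLUT3) rose with both viruses over time and reached 134, 137 and 138 with Ad-TEADi and 59.1, 53.9 and 53.3 with Ad-GFP at 48 h (log2 change 1.28 ± 0.07, adjusted p = 3.1e-16). Its relative SLC2A12 had 8.71, 8.49 and 8.84 with Ad-TEADi and 2.78, 2.55 and 3.07 with Ad-GFP (log2 change 1.35 ± 0.13, adjusted p = 1.1e-10). SLC9A9, a proton exchanger of endosomes (2.29), the calcium pump ATP2B4 (0.78) and FXYD3 (1.09), which modulates the sodium pump, rose as well. KCNN4 had not risen (log2 change 0.42). Of 37 other tested channels and solute carriers, 10 had risen and 4 had fallen at 48 h.

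Metabolic and redox enzymes numbered 15, and all had risen at 48 h with a median of 1.06. CRABP2 carries retinoic acid to its receptor and is known from differentiating epidermis. Its values were 2.75, 4.07 and 3.93 with Ad-TEADi and 0.652, 1.13 and 0.799 with Ad-GFP at 24 h, and 24.6, 26.3 and 25.6 with Ad-TEADi and 2.48, 2.98 and 2 with Ad-GFP at 48 h (log2 change 2.93 ± 0.15, adjusted p = 5.7e-17). FAM213A (PRXL2A), a peroxiredoxin-like protein, had 8.19, 12.9 and 10.4 with Ad-TEADi and 3.01, 2.78 and 4.56 with Ad-GFP at 24 h, and 33.2, 35.2 and 37.4 with Ad-TEADi and 5.11, 4.71 and 5.6 with Ad-GFP at 48 h (log2 change 2.56 ± 0.14, adjusted p = 8.6e-16). GLUL, glutamine synthetase, was the member with the highest mean value. It had 1763, 1731 and 1784 with Ad-TEADi and 805, 874 and 920 with Ad-GFP at 48 h (log2 change 1.02 ± 0.06, adjusted p = 1.6e-11). The hydrogen peroxide source DUOX1 and its maturation factor DUOXA1, which lie head to head, both rose, with 90.2, 89.8 and 93.6 with Ad-TEADi and 44.6, 45.2 and 47.2 with Ad-GFP for DUOX1 (log2 change 0.98 ± 0.06, adjusted p = 4.7e-15). DUOXA1 had 21.1, 20 and 22.2 with Ad-TEADi and 9.4, 9.77 and 9.12 with Ad-GFP (log2 change 1.08 ± 0.10, adjusted p = 2e-10). FAXDC2, which is related to sterol hydroxylases, changed by 2.19, proline dehydrogenase PRODH by 1.77, creatine kinase CKB by 2.30 and the peroxidase GPX2 by 0.94.

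CYP24A1, the enzyme that breaks down active vitamin D, ran against the others in time. It was the only member that fell in Ad-TEADi cells between 12 h and 48 h, with 6.59, 6.48 and 6.4 at 12 h and 0.979, 1.19 and 1.39 at 48 h in Ad-TEADi, and 5.15, 5.84 and 5.44 at 12 h and 0.506, 0.216 and 0.311 at 48 h in Ad-GFP. At 48 h it was higher with Ad-TEADi (log2 change 0.70 ± 0.15, adjusted p = 0.00024), while its responses at 48 h and 12 h did not pass the test of their difference (0.49 ± 0.22, adjusted p = 0.0752). Of 48 other tested glycosyltransferases, 9 had risen and 5 had fallen (median 0.14). Of 36 other tested oxidoreductases and NRF2 targets, 8 had risen and 3 had fallen at 48 h (median 0.04).

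All 7 growth arrest and stress genes had risen at 48 h, with a median of 1.26, and their 12 h median of 0.33 was the highest of the role groups. C10orf10 had 16.4, 16.2 and 17.9 with Ad-TEADi and 5.72, 6.85 and 6.45 with Ad-GFP at 24 h, and 57.7, 50.7 and 56.6 with Ad-TEADi and 17.4, 15.8 and 14 with Ad-GFP at 48 h (log2 change 1.74 ± 0.10, adjusted p = 3.2e-16). SESN3, a sestrin that restrains mTORC1 and a FOXO target, had 8.45, 10 and 10.8 with Ad-TEADi and 5.59, 7.64 and 8.04 with Ad-GFP at 12 h, and 32.4, 32.8 and 36.9 with Ad-TEADi and 13.2, 13.6 and 14.1 with Ad-GFP at 48 h (log2 change 1.26 ± 0.11, adjusted p = 1.3e-10). BTG2, an antiproliferative gene that p53 can raise, had 109, 96.1 and 107 with Ad-TEADi and 60.2, 62.3 and 65 with Ad-GFP (log2 change 0.72 ± 0.06, adjusted p = 8.5e-13). PDCD4, an inhibitor of translation initiation (1.38), the small heat shock protein HSPB1 (1.40), TP53INP1 (0.97) and TP53AIP1 (0.87) completed the group. Beside them stood the S phase genes, none of which was a member: 35 of 43 had fallen at 48 h and 0 had risen, with a median of -0.92. Their summed value ranged from 774 to 824 in Ad-TEADi and from 1472 to 1597 in Ad-GFP at 48 h, and its part in the members' changes was not tested. The list of YAP/TAZ-TEAD targets also held no member, and of its 24 tested genes 1 had risen and 9 had fallen at 48 h (median -0.49). Of 33 other tested FOXO and growth arrest genes, 13 had risen and 1 had fallen (median 0.45).

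Cytoskeleton and trafficking genes numbered 19, with 17 risen at 48 h (median 1.21). RRAD, a small GTPase, had 2.07, 2.94 and 2.74 with Ad-TEADi and 1.6, 1.18 and 1.26 with Ad-GFP at 24 h, and 18.5, 17.6 and 20.8 with Ad-TEADi and 1.87, 3.11 and 3.2 with Ad-GFP at 48 h (log2 change 2.44 ± 0.15, adjusted p = 6.4e-15). SYT7 and RAB27B act in vesicle release, and changed by 1.63 and 1.75. MYO1G (log2 change 0.35 ± 0.14, adjusted p = 0.0293) and DYSF (log2 change 0.58 ± 0.12, adjusted p = 0.00012) stayed under the fold limit.

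Among 8 noncoding RNAs and pseudogenes, 4 had risen at 48 h, the smallest share of any role group, and the median was 0.57. BAIAP2-AS1 had 15.8, 15.7 and 14.6 with Ad-TEADi and 9.5, 9.25 and 9.92 with Ad-GFP (log2 change 0.63 ± 0.10, adjusted p = 3.8e-06), and LINC00964 changed by 1.22. RP11-463D19.2 had no stable order, with 1.14, 0.67 and 0.596 with Ad-TEADi and 0.272, 0.0982 and 0.0586 with Ad-GFP at 24 h but 1.28, 0.188 and 0.439 with Ad-TEADi and 1.72, 0.768 and 1.85 with Ad-GFP at 48 h (log2 change -0.60). YWHAZP3, a processed pseudogene (log2 change 0.28 ± 0.17, adjusted p = 0.167), and GOLGA6L4 of the other members, which has near-identical copies (log2 change 0.02 ± 0.15, adjusted p = 0.941), passed neither limit at 48 h, and their groups overlapped at 12 h and 48 h. The remaining 16 members, of other or unassigned roles, gave 14 rises and a median of 1.23.

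**Figure D4:**
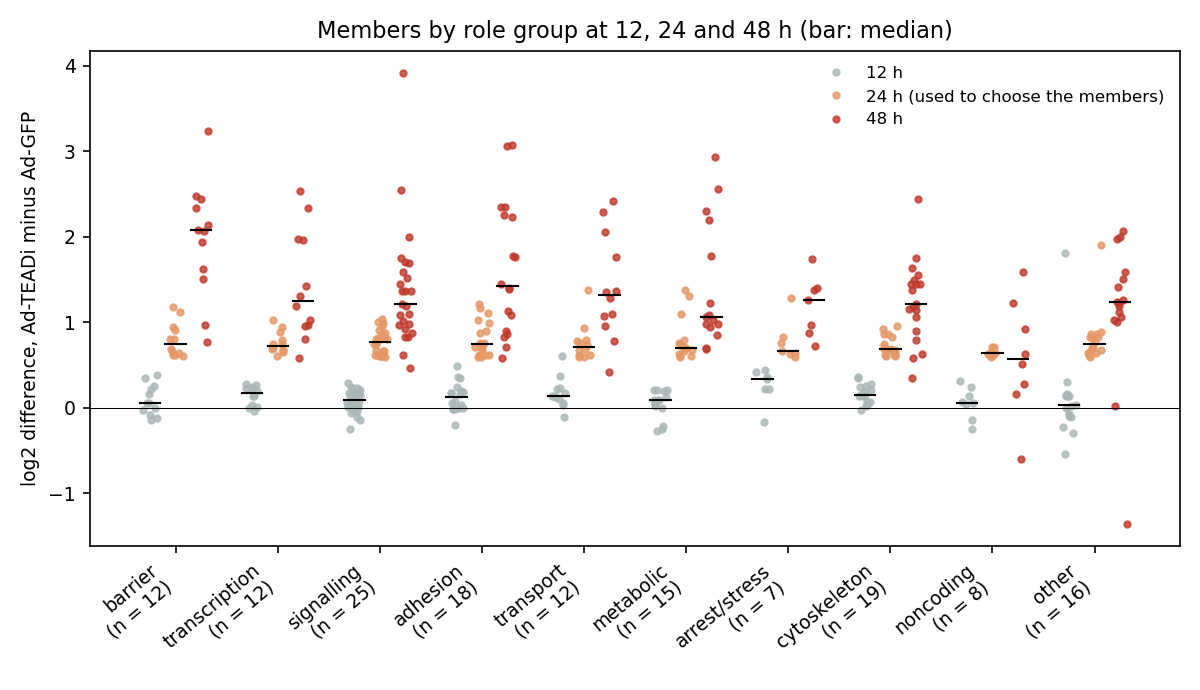
Log2 difference, Ad-TEADi minus Ad-GFP, of each member (points) at 12, 24 and 48 h by role group, with the median as a bar. The 24 h differences chose the members. The 48 h median was highest for barrier genes (2.08) and lowest for noncoding genes (0.57).

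Of the 12 members that had not risen at 48 h, ITGB8, MSC, DYSF, SOCS1, RP11-1055B8.7 and MYO1G missed the fold limit alone. Their changes were 0.58, 0.58, 0.58, 0.46, 0.51 and 0.35. KCNN4, one of the 11 without a p-value here, changed by 0.42, under the fold limit. GOLGA6L4, RP4-798P15.3 and YWHAZP3 missed both limits, while NRBP2 and RP11-463D19.2 lay on the lower side, at -1.36 and -0.60. GPR153, an orphan receptor, passed the fold limit by little (log2 change 0.62 ± 0.07, adjusted p = 6.8e-09) and without Ad-TEADi replicate 1 at 48 h its change was 0.58.

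The course of the members without the inhibitor was read in Ad-GFP cells, in which time in culture and time since infection cannot be told apart. Between 12 h and 48 h, 56 members rose, where 8.34% of tested genes did, and 17 fell, where 5.25% did. These counts depended on the scale, and so did the share of all tested genes that passed in either direction, 13.6% in the main fit. On TPM 16 members were higher and 4 lower, where 3.97% of tested genes passed. With a pseudocount of 0.1 on TPM 32 were higher and 14 lower (12.2% of tested genes). With a pseudocount of 5 on CPM 36 were higher and 11 lower (7.31%). Over the 133 members the counts of the main fit were 53 and 17. The median change over time was 0.42, against 0.03 for all tested genes. In Ad-TEADi cells 123 members rose over the same interval, where 14.3% of tested genes did, and 1 fell, where 11.9% did, with a median of 1.55 against 0.01. On TPM 60 of 144 rose in Ad-TEADi cells, where 9.23% of tested genes passed in either direction. Over the 133 members 113 rose and 1 fell in the main fit. Among the role groups the barrier genes had the highest median with either virus. Of the 12, 12 rose in Ad-TEADi (median 2.89) and 10 rose in Ad-GFP (median 1.27). ALOX15B changed by 4.40 with Ad-TEADi and 2.18 with Ad-GFP, SPRR1B by 5.08 and 1.90, and KRT15 by 3.70 and 2.0, in the same order of viruses. Other members had no rise with Ad-GFP: NOTCH3 changed by 3.93 with Ad-TEADi and 0.31 with Ad-GFP, DPP4 by 2.59 and -0.49, SPON2 by 2.93 and -0.14, and OVOL1 by 2.44 and 0.07.

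A further set fell with Ad-GFP. ITGB6 changed by -0.30 with Ad-TEADi and -1.19 with Ad-GFP, TNFSF10 by -0.14 and -1.69, KANK4 by -0.02 and -1.44, CTTNBP2 by 0.19 and -1.23, and PFKFB4 by 0.06 and -0.81. The Ad-TEADi changes of these 5 did not pass the limits. The Ad-GFP course and the 48 h comparison share the Ad-GFP libraries at 48 h, so these numbers are set side by side and not counted as independent.

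**Figure D5:**
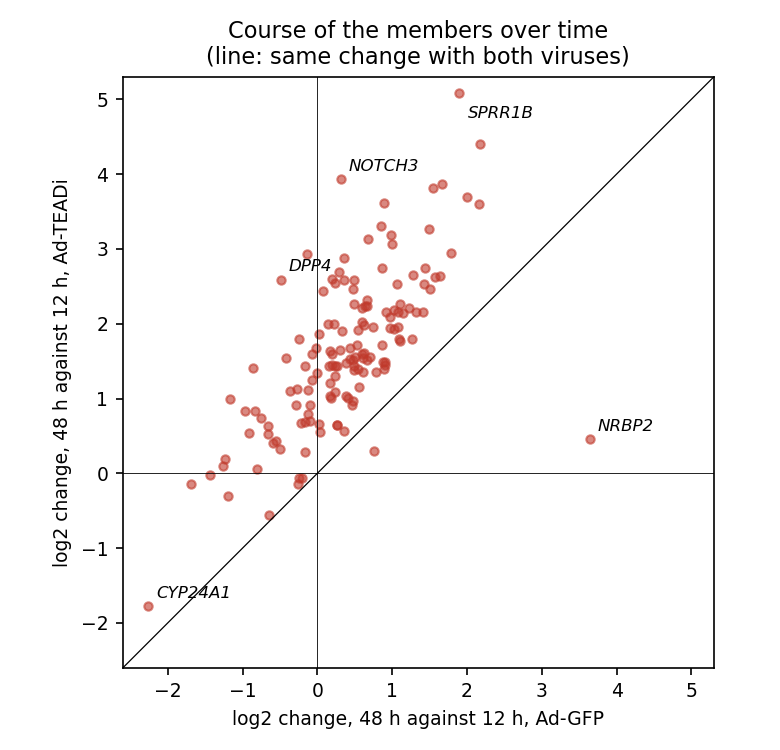
Log2 change between 12 h and 48 h of each of the 144 members, in Ad-TEADi cells (y axis) against Ad-GFP cells (x axis), with a line where both are equal. Points lie above the line where the change over time was greater with Ad-TEADi, as for SPRR1B (5.08 with Ad-TEADi, 1.90 with Ad-GFP), and NRBP2 (0.46 with Ad-TEADi, 3.64 with Ad-GFP) lies far below it.

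The difference between the 48 h and 12 h responses, tested as an interaction, passed both limits for 125 members, all with the larger response at 48 h, where 6.19% of tested genes did. On TPM 53 of 144 passed, where 2.73% of tested genes did in either direction. With a pseudocount of 0.1 on TPM 96 passed (8.4% of tested genes), and 116 of the 133 members did on CPM. The median difference of responses was 1.17, against -0.03 for all tested genes. No member responded less at 48 h than at 12 h by these limits, where 5.97% of tested genes did. For THEMIS2, TYMP and MRGPRX3 the libraries stood in opposite order at 12 h and 48 h. THEMIS2, a signalling adaptor of immune cells, had 7.88, 11.5 and 11.1 with Ad-TEADi and 14.4, 13.9 and 17.1 with Ad-GFP at 12 h, and 19.9, 18.9 and 17.1 with Ad-TEADi and 7.99, 7.35 and 6.36 with Ad-GFP at 48 h (difference of responses 1.80 ± 0.24, adjusted p = 1.3e-05). The 12 h test was not passed by THEMIS2 (log2 change -0.54 ± 0.17, adjusted p = 0.115), TYMP (log2 change -0.27 ± 0.14, adjusted p = 0.342) or MRGPRX3 (log2 change -0.25 ± 0.10, adjusted p = 0.176).

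Several members are neighbours in the genome (hg19). GJB2 (chr13:20761609-20767038) and GJB6 (chr13:20796110-20806535) are 29072 bases apart, and DUOXA1 (chr15:45409569-45422137) overlaps the start of DUOX1 (chr15:45422131-45457775) by 6 bases on the other strand. KRT15 with KRT16 on chromosome 17, CAPN12 with LGALS7B on chromosome 19 and TFEB with PRICKLE4 on chromosome 6 were also within 100000 bases. Otherwise the members were spread over 22 chromosomes. Of the 144, 58 overlap another listed gene, and strand was not stated for the counting, so reads of the overlap cannot be assigned. Where the partner is far more abundant this bears on the member's level, as for CAPN12 (mean value 6.17) with ACTN4 (970.2), ZNF750 (0.853) with TBCD (80.2), KIAA1199 (2.38) with MESDC2 (94.6) and ST8SIA1 (1.57) with CMAS (49.7).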

How the data were processed

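RNA of 18 libraries was measured. The authors trimmed reads with Trimmomatic 0.36 and, per the study's reporting form, Cutadapt, aligned them to hg19 with STAR and counted genes in Partek Flow. The sources differ on the versions of STAR and Partek Flow. The authors deposited TMM normalized CPM, with 1 read added to each count, and TPM. No source used here states whether counting used strand. The deposited p-value, ratio, fold change score and group mean columns of the authors' own comparisons were not used.

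The test took genes that reached a value of 1 in 3 libraries and was run with limma 3.58.1 (R 4.3.3) on log2(CPM + 1), with 6 group means, a trended robust prior and Benjamini-Hochberg adjustment over 13417 genes. A count model was not the main test because the values are not counts, and 75.3% to 78.1% of low values came out as whole reads within 0.01. The fit was tested on simulated data. SD and n refer to 3 libraries.

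The members and gene lists were chosen with earlier results of these data known, and the role groups once the members were known. Named members were the 20 largest 24 h differences with an Ad-TEADi mean of at least 5, those called at 12 h, the 10 largest and 10 smallest 48 h changes at a mean of at least 5, up to 4 per gene list, the 3 on either side of the limit and any called lower, and others were added for their role. Alternatives were pseudocounts of 0.1 and 5, a mean value of at least 10, no filter, TPM, median scaling, a plain prior, fewer groups, a replicate block, stricter limits, other member rules and each library left out. Some results are not reported here.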

Additional observations from a re-analysis of the deposited data

Results flagged for a closer look

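The response to Ad-TEADi differed between 48 h and 12 h for 125 of the 144 members, by the interaction term of the limma fit. In all 125 the response was larger at 48 h, where 6.19% of tested genes had such a difference.

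In 3 members the libraries stood in opposite order at the 2 times, with all Ad-TEADi libraries below all Ad-GFP libraries at 12 h and above them at 48 h. The 12 h order was seen in 10.99% of tested genes, and none of the 3 passed the test at 12 h. The 48 h response minus the 12 h response was 1.80 for THEMIS2, 1.49 for TYMP and 1.17 for MRGPRX3 on the log2 scale.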

How the results depend on the processing

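The 59 members named by the fixed rules gave 940 values under the alternatives, which do not cover the members added for their role. Of the 59, 34 kept direction and call at 48 h throughout. Of the 940 values, 884 kept their direction and side of the limits, 38 lost the call, 15 gained it and 3 changed sign. The 3 were the uncalled 48 h change of NRBP2 (-1.36), which was 1.14 with TPM, 2.19 with TPM and a pseudocount of 0.1, and 0.70 without Ad-TEADi replicate 2 (range -2.42 to 0.70 with 1 library left out). Without 1 of the 24 h libraries, 114 to 139 of the 144 members still met the rule, an alternative added after seeing the data. Genes that would newly have met the rule are not in these counts. With TPM, 63 members were called at 48 h, 0 at 12 h, 20 in the Ad-GFP course, 60 in the Ad-TEADi course and 53 in the difference of responses, where 2.91%, 0.0149%, 3.97%, 9.23% and 2.73% of all tested genes were. A pseudocount of 1 is large on that scale, since the deposited TPM sum to 98913 to 99722 per library. With 0.1 in its place, added after seeing the data, the counts were 114, 0, 46, 98 and 96, and the shares 8.79%, 0.00745%, 12.2%, 24.7% and 8.4%. Over the 133 members that pass the filter without Ad-TEADi at 24 and 48 h, also added, they were 123, 1, 70, 114 and 116. At a mean value of at least 10, which leaves 75 members, the counts were 71, 0, 45, 66 and 68 in the same order, and the shares 10.9%, 0%, 12.3%, 25.1% and 10.1%. Over the 14 members with a 24 h difference of 1 or more they were 13, 0, 9, 13 and 13. Over the 291 members chosen with a pseudocount of 0.1, the counts were 222, 1, 98, 219 and 212 in the same order. The 48 h calls were 76.3% of the 291 and the Ad-GFP calls 33.7%, against 91.7% and 50.7% of the 144 in the main fit. The choices of 133, 14 and 291 members leave the shares of all tested genes at 12.6%, 0.0447%, 13.6%, 26.2% and 12.2%. A pseudocount of 5 left 0 calls at 12 h (0.0149% of all tested genes) and 47 in the Ad-GFP course (7.31%), and an adjusted p of 0.01 with 2-fold left 0 (0.00745%) and 34 (3.31%). The 12 h call was also lost (0 calls) without the trended robust prior and in a fit of only the groups compared. Causes were not tested.

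Calls under this heading count both directions. With 1 library left out, they numbered 133 to 135 at 48 h (12.4% to 13.2% of all tested genes) and 0 to 1 at 12 h (0.00745% to 0.0671%). In the Ad-GFP course they numbered 67 to 72 (13.2% to 14.8%), with 52 to 55 higher and 15 to 17 lower. The Ad-TEADi course gave 122 to 126 (25.6% to 27.0%) and the difference of responses 122 to 127 (12.0% to 12.6%). RP11-463D19.2 was counted as lower at 48 h without Ad-TEADi replicate 1 (-0.87), without Ad-GFP replicate 2 (-0.82) and with the replicate block (-0.60).

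Same-numbered libraries did not deviate together (correlations -0.11 to 0.09), so replicate numbers were not taken as pairs. With the replicate block, 133 members were called at 48 h, 1 at 12 h, 73 in the Ad-GFP course, 124 in the Ad-TEADi course and 124 in the difference of responses. The shares of all tested genes were 12.6%, 0.0447%, 13.6%, 26.2% and 12.2% in the same order. Members with values near 1 rest on few reads, and their folds are the least certain.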
